A study of Mus musculus with 4 samples.

Results

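The unfolded protein and integrated stress genes are 32 genes named by symbol, and all 32 were found among the 27998 genes that the 4 libraries of this series list in common. By known role they form 3 groups. The first holds 18 genes of protein folding and disposal in the endoplasmic reticulum (ER), called the chaperone genes here; the second is the transcription factor gene Xbp1 alone; and the third holds 13 genes of the Atf4 type. Levels were read in 3 classes of cell barcodes that were set by counts of unique molecular identifiers (UMIs, each counting 1 captured RNA molecule). The epithelial class had at least 3 UMIs of Krt8 and Krt18 together and 0 of the leukocyte gene Ptprc, the plasma class had at least 10 UMIs of Jchain, the joining chain of secreted antibodies, and the myeloid class had at least 3 UMIs of Tyrobp, a signalling adaptor of myeloid cells.

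The 4 single-cell libraries follow mammary tumour formation in female mice of mixed genetic background, named Trp53L/L;Brca1L/L;R26Y, in which both tumour suppressor genes and a YFP reporter are Cre-dependent. Cre came from Ad-K8-Cre, an adenovirus with a keratin 8 promoter injected into the ducts, so that the genes were meant to be lost in keratin 8-positive luminal cells, and all 4 libraries, including both premalignant ones, are labelled Trp53/Brca1-null. The 2 weeks library held sorted YFP+ epithelial cells about 2 weeks after injection, the 5 months library held YFP+ epithelial cells with CD45+ leukocytes about 5 months after injection, and tumour 1 and tumour 2 held DAPI-negative live cells of a tumour mass each. The sorts therefore differ between stages, each premalignant stage is 1 library, and neither the animals' ages nor the number of mice behind a library is given in the labels. No library without the deletions is part of the series.

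The unfolded protein response is started by 3 sensors in the ER membrane when unfolded proteins build up. Ern1 (IRE1) splices the Xbp1 messenger and Atf6 is cleaved to a transcription factor, and both raise ER chaperones, disulfide isomerases and degradation factors. Eif2ak3 (PERK) phosphorylates the translation factor eIF2α, which slows translation and raises Atf4 protein; other kinases reach Atf4 through the same site, and the shared output, amino acid synthesis and transport genes with Ddit3, Atf3 and Trib3, is the integrated stress response. Plasma cells, which secrete antibody, depend on Xbp1, and secretory mammary epithelium makes milk proteins through the same ER machinery.

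Some promoters of the chaperone genes and some of the Atf4-type genes hold short elements known from each arm, which are shown because the 2 groups are reported apart throughout. RefSeq promoters of the build GRCm38.p6, from 250 bases before to 50 after the start of the gene, were held for 30 of the 32 genes. The ER stress response element, searched on both strands as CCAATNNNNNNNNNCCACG, was in 37 of 27025 promoters (0.137%) and in 8 of the 16 chaperone promoters held (Hspa5, Hsp90b1, Dnajc3, Creld2, Calr, Canx, Pdia6 and Syvn1), against 0 of 13 Atf4-type promoters. The CCAAT-enhancer and ATF composite element, searched as TGATGNAA, was in 1219 promoters (4.51%), in 5 of 13 Atf4-type promoters (Atf3, Trib3, Chac1, Asns and Slc7a11) and in 1 chaperone promoter, that of Herpud1. The Xbp1-type element TGACGTGG was in 193 promoters (0.714%) and in 0 of the 30 promoters of these genes. A match is a run of letters and not a shown binding site. The stretches below are written 5′ to 3′ along the gene's strand, with the matched element in capitals; Hsp90b1 and Slc7a11 hold it once on each strand.
Hspa5, chr2:34771995-34772073, plus strand: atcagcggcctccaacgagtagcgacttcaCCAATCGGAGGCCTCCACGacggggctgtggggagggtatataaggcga
Hsp90b1, chr10:86705503-86705686, minus strand: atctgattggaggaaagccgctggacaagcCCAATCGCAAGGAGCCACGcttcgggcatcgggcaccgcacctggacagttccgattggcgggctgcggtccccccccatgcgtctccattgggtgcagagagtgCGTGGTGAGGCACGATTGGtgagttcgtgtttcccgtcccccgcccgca
Creld2, chr15:88819490-88819568, plus strand: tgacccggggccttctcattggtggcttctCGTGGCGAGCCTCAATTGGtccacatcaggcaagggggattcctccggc
Syvn1, chr19:6046502-6046575, plus strand: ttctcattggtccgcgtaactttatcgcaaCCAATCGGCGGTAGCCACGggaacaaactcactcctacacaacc
Chac1, chr2:119351019-119351086, plus strand: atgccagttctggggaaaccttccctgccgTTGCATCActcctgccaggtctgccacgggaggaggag
Asns, chr6:7693210-7693262, minus strand: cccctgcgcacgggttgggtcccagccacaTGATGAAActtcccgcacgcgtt
Slc7a11, chr3:50443623-50443709, minus strand: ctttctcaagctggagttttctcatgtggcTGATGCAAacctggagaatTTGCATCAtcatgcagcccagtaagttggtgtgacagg

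The epithelial class held 1235 barcodes at 2 weeks, 496 at 5 months, 366 in tumour 1 and 382 in tumour 2. The plasma class held 146, 27 and 13 barcodes and the myeloid class 804, 1972 and 769 in the last 3 libraries, while the 1 plasma and 5 myeloid barcodes of the 2 weeks library were too few to use. Libraries had 6722044 to 23736366 UMIs over the shared genes, and the 32 genes are 0.114% of those genes by number. Levels are given in CPM, the UMIs of a gene for every 1000000 UMIs of the class, summed over its barcodes, and the plasma sums were small (623718, 135245 and 99956 UMIs), so that 3 UMIs stand for 4.81, 22.2 and 30.0 CPM there. Libraries shared 2 to 16 barcode sequences per pair. The class names held against other markers. Mzb1, an ER protein of plasma cells, was at 5307, 6107 and 4842 CPM in the plasma class and at no more than 1.72 CPM in any epithelial class, and the 7 epithelial markers summed to 1714 to 6663 CPM in the epithelial and 146 to 251 CPM in the plasma class. The plasma class was not pure: 8 myeloid markers summed to 520 to 1294 CPM in it (11325 to 28918 CPM in the myeloid class), with Csf1r at 0 in all 3 libraries, 5 B cell markers to 1080 to 1590 CPM, and 5 T cell markers to 325, 7.39 and 260 CPM.

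Summed over the 18 chaperone genes, the plasma class stood above both other classes in every library that has it. For 5 months, tumour 1 and tumour 2 in turn, the plasma sums were 12055, 14012 and 10445 CPM. Epithelial barcodes stood at 3731, 3058 and 2251 CPM there (2410 CPM at 2 weeks), and myeloid barcodes had 2963, 3204 and 2472 CPM. Plasma barcodes were thus 3.23-, 4.58- and 4.64-fold above the epithelial and 4.07-, 4.37- and 4.23-fold above the myeloid barcodes of their own library. For the 13 Atf4-type genes the ratios of plasma to the other classes were smaller in each library. Their sums were 2249, 2070 and 2001 CPM in plasma, 2065, 1178 and 1325 CPM in epithelial and 1857, 774 and 923 CPM in myeloid barcodes, with 1147 CPM in the 2 weeks epithelial class. Plasma over epithelial ratios were 1.09, 1.76 and 1.51, and plasma over myeloid ratios 1.21, 2.67 and 2.17. The difference between both groups of genes was not tested. All these levels and ratios are over the shared genes only. The 694 genes left out, most of them immunoglobulin, held 691208 UMIs at 5 months, beside 623718 UMIs in the plasma sum. Their split between classes was not tested, and plasma levels would be lower with any of them that lie in plasma barcodes counted. The chaperone difference was also seen in medians over single barcodes, each thinned to 2000 UMIs. Thinning left out 18 of 146 plasma, 53 of 496 epithelial and 135 of 804 myeloid barcodes at 5 months. It left out 224 of 1235 epithelial barcodes at 2 weeks and none in the tumours. The median share of chaperone UMIs was 0.925%, 1.10% and 0.95% in plasma, 0.20% to 0.30% in epithelial and 0.20% to 0.30% in myeloid barcodes. Single barcodes overlapped: at 5 months the plasma 10th percentile was 0.45% and the epithelial 90th percentile 0.6%. Atf4-type medians were 0.15% to 0.2% in plasma, 0.1% to 0.15% in epithelial and 0.05% to 0.15% in myeloid barcodes. Unthinned, the chaperone medians were 0.927%, 1.33% and 0.934% in plasma, 0.199% to 0.307% in epithelial and 0.213% to 0.289% in myeloid barcodes.

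**Figure D1:**
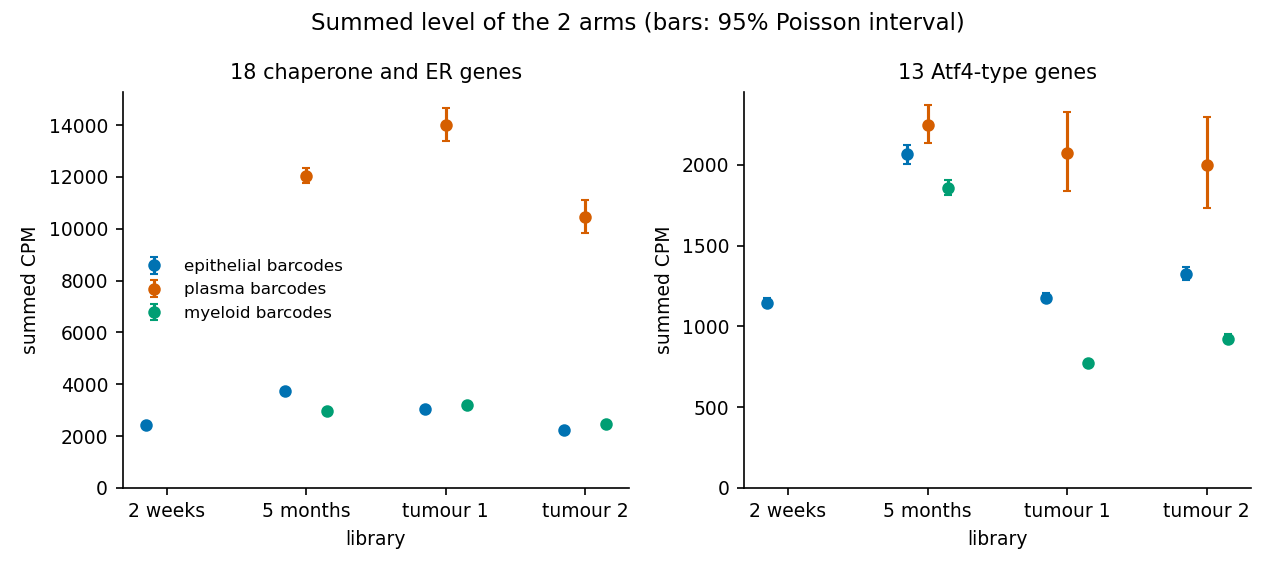
Summed level (CPM) of the 18 chaperone genes and of the 13 Atf4-type genes, for each library and barcode class, with 95% Poisson intervals that cover counting error only. The plasma points of the chaperone genes lie at 10445 to 14012 CPM, above every epithelial and myeloid point, while the Atf4-type points of the 3 classes lie between 774 and 2249 CPM.

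Plasma and epithelial barcodes were compared over 5 months, tumour 1 and tumour 2 with edgeR's quasi-likelihood test on UMI sums, the library as a block and Benjamini-Hochberg adjustment over 10920 genes. Of the 18 chaperone genes 13 were higher in plasma barcodes and 0 lower, where 6.79% of all tested genes were higher and 13.0% lower. Their median log2 difference was 2.40, against -0.45 over all tested genes. Xbp1 was higher as well. Of the 13 Atf4-type genes 5 were higher and 2 lower, with a median of 0.25, which is the same with Slc7a11 set at its bound. P-values measure how far the differences between classes vary over 3 libraries, of which 1 is premalignant and 2 are tumours. That spread is pooled over all 3 classes, the myeloid one among them, with 4 residual degrees of freedom. The plasma and myeloid classes were compared in the same fit, where 3.62% of all genes were higher and 9.91% lower in plasma barcodes: again 13 chaperone genes and Xbp1 were higher and 0 lower, and 4 Atf4-type genes were higher and 2 lower. The comparisons share the plasma sums, so the second is not a separate test of the plasma level.

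**Figure D2:**
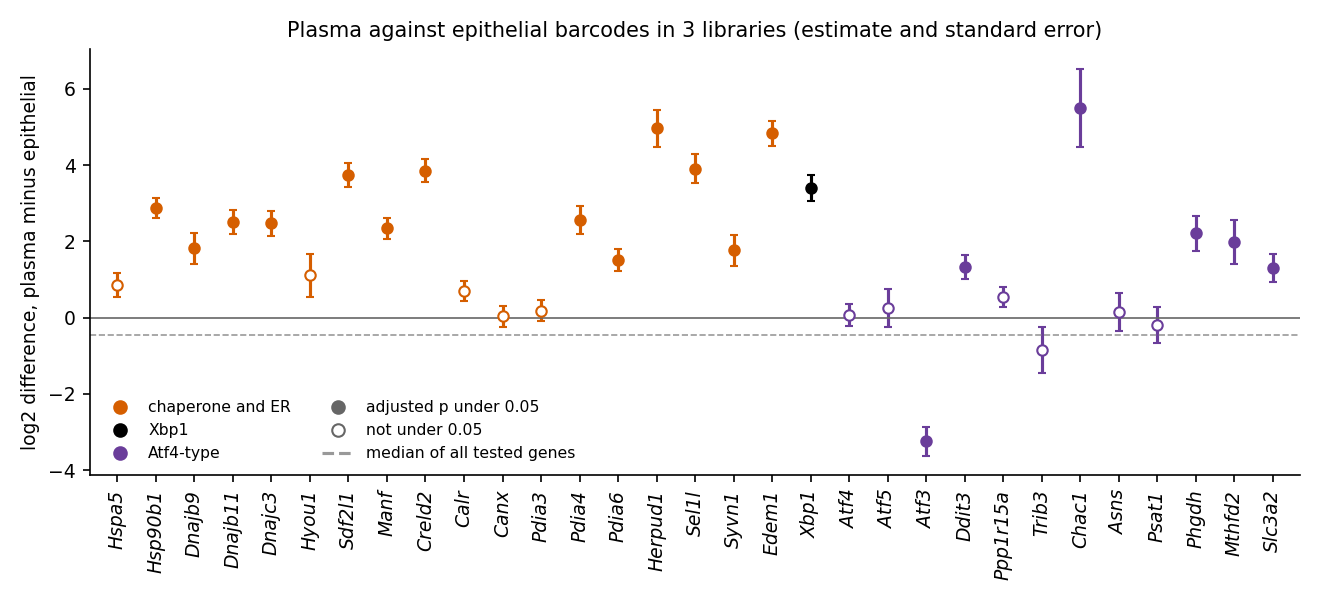
Log2 difference of plasma minus epithelial barcodes for each of the genes but Slc7a11, which had 0 UMIs in plasma barcodes, with its standard error, from the fit over 3 libraries; filled points passed an adjusted p of 0.05, and the dashed line is the median of all tested genes, -0.45. The chaperone genes lie at or above 0.03, up to Herpud1 at 4.96, and the Atf4-type genes lie on both sides of 0.

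Among the general chaperones and their partners, Hsp90b1 (GRP94, the ER HSP90) was at 2334, 2677 and 2001 CPM in plasma barcodes at 5 months, in tumour 1 and in tumour 2, against 319, 444 and 242 CPM in epithelial and 271, 454 and 230 CPM in myeloid barcodes. Every plasma value exceeded every other value, and the log2 difference from epithelial barcodes was 2.88 ± 0.26 (SE, edgeR adjusted p = 2.03e-05). Hspa5 (BiP), the central ER chaperone and the usual marker of the response, did not stand apart from epithelial barcodes in this way. Its level was 1058, 1782 and 730 CPM in plasma, 997, 646 and 404 CPM in epithelial and 608, 532 and 448 CPM in myeloid barcodes, so that each plasma value was the highest of its library and lay above every myeloid value, while plasma and epithelial values overlapped. The 5 months values are over the shared genes, and whether Hspa5 stays higher in plasma with the left-out genes counted was not tested. The difference from epithelial barcodes was 0.85 ± 0.32 (edgeR adjusted p = 0.0826) and from myeloid barcodes 1.00 ± 0.32 (edgeR adjusted p = 0.0580). Both lie near the threshold: Hspa5 was called higher than in epithelial barcodes under 6 of 12 alternatives, at 1.45 without the 5 months library (edgeR adjusted p = 0.00641), and higher than in myeloid barcodes under 7 of 12, among them DESeq2 (DESeq2 adjusted p = 0.0376). Calr, a calcium-binding lectin chaperone, lay above the epithelial values in all plasma sums without overlap (712 to 895 against 376 to 589 CPM) and did not pass edgeR's threshold (0.69 ± 0.26, edgeR adjusted p = 0.0806), though it was called under 7 of 12 alternatives, DESeq2 among them (DESeq2 adjusted p = 0.0135). Canx, its membrane-bound relative, was at 140 to 181 CPM in plasma and 145 to 197 CPM in epithelial barcodes (log2 difference 0.03 ± 0.27). Hyou1, a large HSP70-type chaperone, had few UMIs in all classes, at 10.0 to 27.3 CPM in plasma and 7.76 to 10.9 CPM in epithelial barcodes.

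The co-chaperones and other ER factors Dnajb11, Dnajc3, Sdf2l1, Dnajb9, Manf and Creld2 all passed the test against epithelial barcodes. Dnajb11 (ERdj3) was higher by 2.51 ± 0.31 and Dnajc3 (p58IPK), which also inhibits the eIF2α kinases, by 2.47 ± 0.33 on the log2 scale (3.12 without the 5 months library). Sdf2l1, a partner of Dnajb11, was at 696, 621 and 780 CPM in plasma against 74.6, 43.3 and 46.1 CPM in epithelial barcodes, a log2 difference of 3.73 ± 0.31 (edgeR adjusted p = 9.05e-06), and no plasma value came near the others. Dnajb9 (ERdj4), which binds IRE1, was closer: 321, 532 and 260 CPM in plasma against 182, 86.1 and 77.4 CPM in epithelial and 133, 59.6 and 103 CPM in myeloid barcodes. It was higher by 1.82 ± 0.41 than in epithelial barcodes, and by 2.55 without the 5 months library. Against myeloid barcodes its call was lost without tumour 1 (edgeR adjusted p = 0.0618). Manf, a secreted ER stress protein that binds BiP, was higher by 2.34 ± 0.28, and Creld2, a disulfide isomerase-like ER protein, by 3.86 ± 0.30 (edgeR adjusted p = 7.24e-06), from 67.7, 82.3 and 61.8 CPM in epithelial to 866, 1479 and 720 CPM in plasma barcodes.

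The degradation genes include Herpud1 and Edem1, the chaperone genes with the highest fitted differences from epithelial barcodes, and Syvn1, one of the lower ones. Herpud1, which organises the membrane ubiquitin ligase complex, was at 1295, 843 and 580 CPM in plasma against 67.7, 9.31 and 33.7 CPM in epithelial barcodes, without overlap. The log2 difference was 4.96 ± 0.50 (edgeR adjusted p = 3.40e-05), and it ranged from 4.37 without tumour 1 to 5.72 without tumour 2. Edem1, a mannosidase-like factor that hands misfolded glycoproteins to degradation, was at 617, 739 and 1080 CPM against 31.0, 21.7 and 32.8 CPM, a difference of 4.84 ± 0.33 (edgeR adjusted p = 3.92e-06) and the smallest p of the 32. Its myeloid values, 55.8, 85.3 and 87.9 CPM, lay between both. Sel1l, the adaptor of the ligase Syvn1 (HRD1), was higher by 3.90 ± 0.38 with 160 to 385 CPM in plasma and 11.2 to 27.5 CPM in epithelial barcodes. Syvn1 itself was higher by 1.77 ± 0.41, at 40.0 to 81.3 against 13.0 to 22.0 CPM. Xbp1, which activates these genes, was at 1829, 1434 and 1301 CPM in plasma, 247, 89.1 and 149 CPM in epithelial and 161, 85.8 and 166 CPM in myeloid barcodes, a log2 difference of 3.39 ± 0.34 from epithelial barcodes (edgeR adjusted p = 3.34e-05). Counts per gene do not tell spliced from unspliced Xbp1.

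The disulfide isomerases, which form and shuffle disulfide bonds, split. Pdia6 was higher in plasma barcodes by 1.51 ± 0.28, at 592, 458 and 540 CPM against 218, 180 and 178 CPM. Pdia3 (ERp57), the partner of Calr and Canx, was at 377, 259 and 260 CPM in plasma and 357, 234 and 227 CPM in epithelial barcodes, so that each plasma value was slightly higher and the groups overlapped (0.18 ± 0.27). At 5 months this small margin is over the shared genes only. Pdia4 (ERp72) was at 779, 66.5 and 420 CPM in plasma, 108, 14.4 and 94.0 CPM in epithelial and 43.5, 12.3 and 60.1 CPM in myeloid barcodes. Within each library plasma barcodes were the highest, at 2.56 ± 0.36 above epithelial barcodes, but tumour 1 was low in all 3 classes. The call was lost when the library block was left out (edgeR adjusted p = 0.0696). Over all barcodes, Pdia4 (ENSMUSG00000025823) was at 14.5 CPM in tumour 1 and at 71.1, 80.7 and 80.0 CPM in 2 weeks, 5 months and tumour 2.

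**Figure D3:**
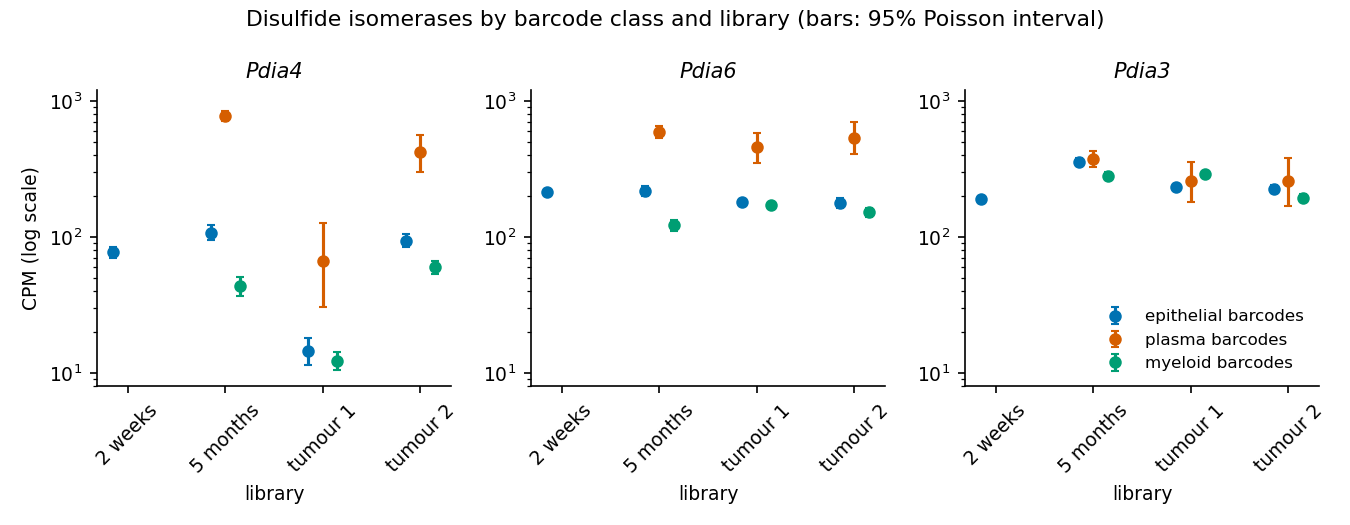
Level (CPM, log axis) of Pdia3, Pdia4 and Pdia6 in each library and barcode class, with 95% Poisson intervals for counting error. Pdia4 in tumour 1 lies at 12.3 to 66.5 CPM, below the same class of the other libraries, while Pdia3 and Pdia6 show no such step.

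Among the Atf4-type genes the plasma barcodes were high for some genes and low for others. Chac1, a glutathione-degrading enzyme and an Atf4 target, was at 111, 170 and 150 CPM in plasma against 14.7, 1.33 and 2.96 CPM in epithelial barcodes, without overlap (log2 difference 5.50 ± 1.03, edgeR adjusted p = 0.00282). Its difference ran from 4.40 without tumour 1 to 6.61 without 5 months, and the call was lost without the library block (edgeR adjusted p = 0.0515). Phgdh, the first enzyme of serine synthesis, was at 261, 229 and 210 CPM against 45.7, 40.7 and 70.4 CPM (2.21 ± 0.45, edgeR adjusted p = 0.00493). Ddit3 (CHOP), a transcription factor of prolonged stress, was at 139, 163 and 100 CPM against 66.0, 46.0 and 53.2 CPM (1.33 ± 0.32, edgeR adjusted p = 0.0106). Both groups of values were apart for these genes. Mthfd2, of mitochondrial folate metabolism (164, 73.9 and 260 CPM against 30.6, 25.3 and 54.1 CPM), and Slc3a2, the shared heavy chain of amino acid transporters (646, 902 and 330 CPM against 413, 199 and 193 CPM), also passed, but Mthfd2 lost its call without tumour 2 (edgeR adjusted p = 0.0523) and Slc3a2 without tumour 1 (edgeR adjusted p = 0.0931). Both also lost it without the library block (edgeR adjusted p = 0.0703 and 0.103).

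Atf3 and Slc7a11 were the lower genes. Atf3, a transcription factor that is also an immediate-early gene, was at 70.5, 37.0 and 10.0 CPM in plasma barcodes (44, 5 and 1 UMIs) against 679, 295 and 251 CPM in epithelial barcodes, without overlap, a log2 difference of -3.25 ± 0.38 (edgeR adjusted p = 9.81e-05). In the same fit 7 of 14 immediate-early genes linked to tissue dissociation were lower and 2 higher in plasma barcodes, and their sums were 5607, 3069 and 2471 CPM in plasma and 9742, 3838 and 5629 CPM in epithelial barcodes; their part in the Atf3 difference was not tested. Slc7a11, the cystine transporter, had 0 UMIs in all 3 plasma sums against 11.2, 13.7 and 6.80 CPM in epithelial barcodes. With 3 UMIs as the floor of each library it was at least 2.33-fold lower at 5 months, and no bound can be given in the tumours, where the floor lies above the epithelial level. Its call was lost without 5 months and with stricter class thresholds. The 6 genes that did not pass were Atf4 itself (0.06 ± 0.28), whose protein is controlled mainly by translation, its relative Atf5 (0.25 ± 0.49), Ppp1r15a, the subunit that reverses eIF2α phosphorylation (0.53 ± 0.27), Trib3, a pseudokinase that binds Atf4 (-0.85 ± 0.61), Asns, asparagine synthetase (0.15 ± 0.49), and Psat1, of serine synthesis (-0.19 ± 0.47).

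**Figure D4:**
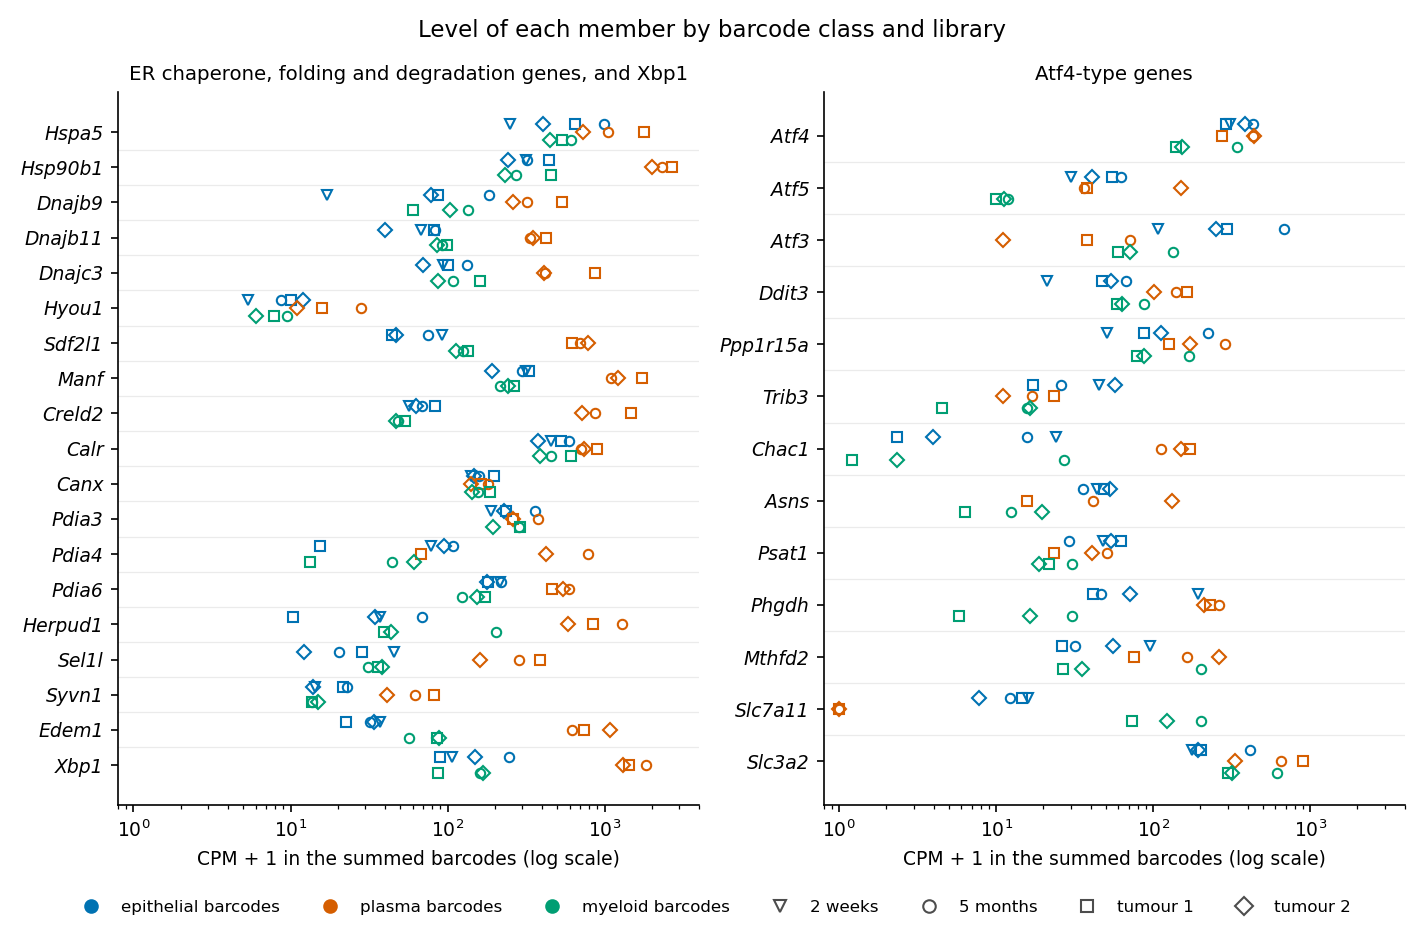
Level of each of the 32 genes (CPM + 1, log axis), with 1 gene to a row in order of role, the barcode class by colour and the library by symbol. The plasma points lie above the epithelial points of the same library for 16 of the 18 chaperone genes, and those of Slc7a11 lie at 0 CPM in all 3 libraries.

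Within libraries, 16 of the 18 chaperone genes were higher in plasma than in epithelial barcodes in all 3 libraries (all but Canx and Hyou1), against 11.7% of all tested genes, and 13 had no overlap between the classes, against 8.17%. These orders are over the shared genes only, and how the left-out genes would change those at 5 months was not tested. Of the 8 chaperone genes whose promoter held the ER stress response element 5 were called higher in plasma barcodes, and of the 8 with a promoter that did not hold it 7 were. Against myeloid barcodes, 16 were higher in all 3 libraries (all but Canx and Pdia3), where 12.9% of all tested genes were, and the same number had no overlap, where 8.66% did. The strongest of these was Creld2 at 4.24 ± 0.31, followed by Herpud1 at 3.59 ± 0.46 and Edem1 at 3.28 ± 0.31. The Atf4-type genes that passed against myeloid barcodes were Phgdh (3.96 ± 0.48), Chac1, Atf5 (2.51 ± 0.51) and Asns (2.15 ± 0.50) on the higher side. The Phgdh difference was 4.60 without 5 months. That of Chac1 was 5.52, with 8.0 without 5 months and 3.83 without tumour 1, and its call was lost without the library block (edgeR adjusted p = 0.0944). Atf5 lost its call without tumour 2 (edgeR adjusted p = 0.0510), as did Asns (edgeR adjusted p = 0.0877), which also lost it without the block (edgeR adjusted p = 0.0570). Chac1 was at 26.0, 0.213 and 1.35 CPM in myeloid barcodes; the tumour 1 value rests on 3 UMIs and has a 95% Poisson interval of 0.0439 to 0.622 CPM. Lower in plasma barcodes were Atf3 (edgeR adjusted p = 0.0498, kept under 3 of 12 alternatives) and Slc7a11, which was at least 41.7-, 3.27- and 4.04-fold lower at 5 months, in tumour 1 and in tumour 2.

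Other genes of the 2 pathways, 85 in lists chosen with earlier results of these data known, were counted in the same way. Of 82 tested between plasma and epithelial barcodes 38 were higher and 4 lower. Genes of ER folding and translocation gave 19 of 26 higher, led by the isomerase Txndc5 (4.17 ± 0.32), the oxidase Ero1lb (4.17 ± 0.55) and the signal peptidase subunit Sec11c (3.89 ± 0.33), and 0 lower. Degradation genes gave 7 of 11, with Derl3, a channel protein, at 364, 370 and 390 CPM in plasma and 9.05, 1.90 and 6.21 CPM in epithelial barcodes (6.33 ± 0.61), Edem2 (4.39 ± 0.36) and Derl1 (2.00 ± 0.31). Sensors and factors of the response gave 5 of 9, led by Creb3l2 (2.36 ± 0.40), Ern1 (1.86 ± 0.59) and Atf6 (1.77 ± 0.40). Eif2ak3 (PERK), an eIF2α kinase counted with the sensors, was higher too (1.70 ± 0.38, and 2.79 ± 0.38 against myeloid barcodes). Of 5 other genes of the eIF2α kinase step 0 passed the edgeR test. Of these 1 had an unadjusted edgeR p under 0.05, as 33.9% of all tested genes did. Atf4 targets outside the 13 gave 7 higher of 31, led by Pycr1, of proline synthesis (3.77 ± 0.62), Pck2 (3.05 ± 0.51) and the glutamine carrier Slc1a5 (2.15 ± 0.44), and 4 lower. Of the lower genes, Stc2 and Vldlr had 0 UMIs in 5 months plasma barcodes, Nupr1 was at 1.60, 29.6 and 30.0 CPM against 893, 355 and 171 CPM, and Cebpb was lower by -1.57 ± 0.38 on the log2 scale. Against myeloid barcodes 37 of 82 were higher and 2 lower, among them Derl3, at 0.905, 0.142 and 2.70 CPM in myeloid barcodes, and Fkbp11, a prolyl isomerase (5.03 ± 0.63).

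Between epithelial and myeloid barcodes, 6 of the 13 Atf4-type and 4 of the 18 chaperone genes passed the test. In the same fit 15.8% of all genes were higher in epithelial barcodes and 14.4% lower. Of the chaperone genes 0 passed as higher and 4 passed as lower: Edem1 (-1.55 ± 0.29), Herpud1 (-1.37 ± 0.43), Sdf2l1 (-1.35 ± 0.28) and Sel1l (-1.05 ± 0.34). An unadjusted edgeR p under 0.05 was found for 4, all of them among the lower genes, and for 40.1% of all tested genes. DESeq2 called 11 of the 32 genes in all, edgeR 10. Herpud1 was at 67.7, 9.31 and 33.7 CPM in epithelial and 201, 38.6 and 42.8 CPM in myeloid barcodes. It was lower in each library with overlap between libraries, by -2.01 without tumour 2, and lost its call without the library block (edgeR adjusted p = 0.207). The Sel1l call was lost without tumour 2 (edgeR adjusted p = 0.206) and without the block (edgeR adjusted p = 0.156). Of the 13 Atf4-type genes 5 were higher in epithelial barcodes. Atf5 was at 61.2, 53.8 and 39.9 CPM against 10.9, 9.01 and 10.2 CPM (2.26 ± 0.43, edgeR adjusted p = 0.00137), and Asns at 34.9, 47.3 and 51.7 CPM against 11.5, 5.32 and 18.5 CPM (2.00 ± 0.43), falling to 1.28 without tumour 1. Both sets of values were apart. Atf3 was higher by 2.02 ± 0.30 beside 6 of 14 immediate-early genes higher and 2 lower, Phgdh by 1.75 ± 0.44 and Trib3 by 1.45 ± 0.43, and the calls of Phgdh and Trib3 were lost without either tumour (edgeR adjusted p = 0.0610 and 0.118, and 0.120 and 0.238) and without the block (edgeR adjusted p = 0.0597 and 0.121).

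Slc7a11 went the other way. It was at 200, 72.6 and 121 CPM in myeloid and 11.2, 13.7 and 6.80 CPM in epithelial barcodes, without overlap, a log2 difference of -3.67 ± 0.43 (edgeR adjusted p = 9.80e-05) that was -4.41 without tumour 1. After thinning, 24.5%, 10.0% and 18.9% of myeloid barcodes had a Slc7a11 UMI, against 1.13%, 2.46% and 1.05% of epithelial barcodes. Unthinned the shares were 30.2%, 23.8% and 38.2% against 2.82%, 12.6% and 4.45%. Of plasma barcodes 0 of 128, 0 of 27 and 0 of 13 had one, which allows shares of up to 2.84%, 12.8% and 24.7% by the exact binomial interval. Its partner Slc3a2 was at 609, 299 and 318 CPM in myeloid and 413, 199 and 193 CPM in epithelial barcodes, which did not pass (-0.76 ± 0.34, edgeR adjusted p = 0.112). Of 82 other pathway genes 10 were higher in epithelial barcodes, led by Vldlr (3.39 ± 0.72), Fkbp11 (3.15 ± 0.59) and Stc2 (2.45 ± 0.60), and 4 lower, led by Ero1lb (-1.74 ± 0.48), Ern1 (-1.67 ± 0.43) and Edem2 (-1.33 ± 0.33).

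Between the premalignant epithelial classes the comparison is 1 library against 1 and has no test. Genes count as different here from a 2-fold change of TMM-scaled CPM + 1 on, given at least 20 CPM in the higher library. By that rule 14.3% of 5862 genes were higher and 15.3% lower at 5 months than at 2 weeks. Of 30 genes of the 32 that reached 20 CPM (all but Hyou1 and Slc7a11) 8 were higher and 3 lower. The higher chaperone genes were Dnajb9, at 16.0 CPM at 2 weeks and 182 CPM at 5 months (log2 difference 3.51), and Hspa5, at 249 and 997 CPM (2.07). The other 14 chaperone genes that did not reach 2-fold included Hsp90b1 at 314 and 319 CPM and Manf at 313 and 298 CPM, and Sel1l was lower, at 44.6 and 19.4 CPM (-1.08). Xbp1 was higher (1.29). The higher Atf4-type genes were Atf3 (2.73), Ppp1r15a (2.22), Ddit3 (1.74), Slc3a2 (1.31) and Atf5 (1.14), and the lower ones were Phgdh, from 191 to 45.7 CPM (-1.96), and Mthfd2, from 94.9 to 30.6 CPM (-1.52). The tested chaperone genes had a median of 0.38 and the Atf4-type genes of 0.18, against -0.12 over all genes. Of the 14 immediate-early genes 11 were higher and 0 lower, their sum being 2932 CPM at 2 weeks and 9742 CPM at 5 months, and the 6 milk protein genes summed to 734 and 63688 CPM; the part of either in these differences was not tested.

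**Figure D5:**
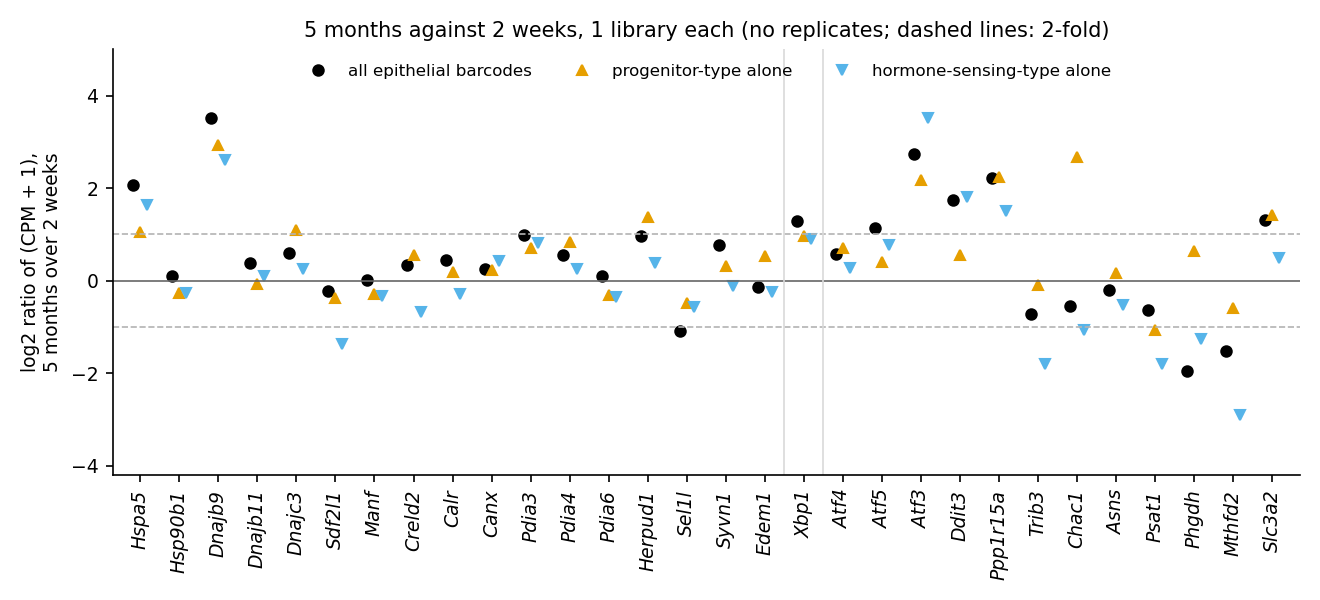
Log2 difference of 5 months minus 2 weeks epithelial barcodes (TMM-scaled CPM + 1) for the genes that reached 20 CPM, over all epithelial barcodes and within the progenitor-type and hormone-type barcodes. Dnajb9, Hspa5, Atf3 and Ppp1r15a lie above 1 in all 3, while Phgdh lies at -1.96 over all and at 0.64 within the progenitor type.

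The 2 libraries also differ in their kinds of luminal cells. Barcodes with a UMI of Elf5, Kit, Aldh1a3 or Cd14 and none of Prlr, Esr1, Pgr or Cited1 (progenitor type) numbered 91 at 2 weeks and 273 at 5 months, and those with the reverse pattern (hormone type) 797 and 56. Within the progenitor type Dnajb9 was higher at 5 months by 2.93 and within the hormone type by 2.61. For Hspa5 the values were 1.05 and 1.64, for Atf3 2.18 and 3.52, and for Ppp1r15a 2.23 and 1.50, so these 4 genes passed the 2-fold rule in both kinds. Hspa5 passed narrowly in the progenitor type: before TMM scaling it was at 647 CPM at 2 weeks and 1095 CPM at 5 months, under 2-fold. Phgdh did not keep its direction: it was at 27.7 CPM in the progenitor type and 206 CPM in the hormone type at 2 weeks, and 35.8 and 86.1 CPM at 5 months, log2 differences of 0.64 and -1.25. Mthfd2 was lower by -0.58 and -2.89, and the hormone-type value rests on 3 UMIs at 5 months. Ddit3 passed the rule in the hormone type alone (1.82, and 0.57 in the progenitor type) and Slc3a2 in the progenitor type alone (1.43, and 0.50 in the hormone type). Sel1l, Xbp1 and Atf5 passed the rule in neither kind, at -0.47 and -0.56, 0.96 and 0.91, and 0.41 and 0.77. Of 66 other pathway genes 10 were higher and 5 lower over all epithelial barcodes, the higher led by Cebpb (2.83), Slc7a5 (2.70) and the sensor Eif2ak3 (2.02) and the lower by Pck2 (-2.14), Stc2 (-1.61) and Wars (-1.15).

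The progenitor and hormone types were compared over 2 weeks, 5 months and tumour 2, since tumour 1 had 3 hormone-type barcodes. Of 6931 genes 1.17% were higher in the progenitor type and 0.418% lower. Of the 29 genes of the 32 that passed the filter on low counts (all but Hyou1, Chac1 and Slc7a11) 0 passed edgeR's adjusted threshold, 7 had an unadjusted p under 0.05 (12.1% of all tested genes), and DESeq2 called 0. Their median log2 difference was 0.42, against 0.01 over all genes. Hspa5 was at 647, 1095 and 408 CPM in the progenitor type against 186, 580 and 273 CPM in the hormone type at 2 weeks, at 5 months and in tumour 2. It was higher in each library, with overlap between libraries, and differed by 1.12 ± 0.29 (edgeR adjusted p = 0.0904), with 1.37 without tumour 2, where it was called (edgeR adjusted p = 0.000997), and 0.53 with Cd14 left out of the progenitor markers. Summed chaperone levels were 1.76-, 1.60- and 1.11-fold higher in the progenitor type. The other 6 with an unadjusted p under 0.05 were Pdia6 (0.79 ± 0.26), Calr (0.66 ± 0.26), Sdf2l1 (0.82 ± 0.32), Atf5 (0.98 ± 0.36), Psat1 (0.86 ± 0.36) and Phgdh (-1.45 ± 0.54). The tumour 2 hormone-type sum rests on 11 barcodes. Of 67 other pathway genes 1 was called, Pck2, lower in the progenitor type (-2.12 ± 0.38).

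Tumour epithelial barcodes (n = 2) were compared with each premalignant library in 1 fit with 1 residual degree of freedom. Its spread is that between the 2 tumours, and each lone premalignant library is assumed to vary like them. Against 2 weeks 0.771% of 12199 genes were higher and 0.705% lower in tumours, and against 5 months 0.0328% were higher and 0.320% lower. Of the 32 genes 0 passed edgeR's adjusted threshold in either comparison. Against 2 weeks 5 had an unadjusted p under 0.05, no larger a share than the 15.7% of all tested genes. DESeq2 called 1, Dnajb9, and the share of all genes it called is not given. Dnajb9 was at 86.1 and 77.4 CPM in the tumours and 16.0 CPM at 2 weeks (2.45 ± 0.59, edgeR adjusted p = 0.0993, DESeq2 adjusted p = 0.00780), and it too was called without TMM factors or the filter. Chac1 was at 1.33 and 2.96 CPM in the tumours, 23.0 CPM at 2 weeks and 14.7 CPM at 5 months (-3.37 ± 0.71 against 2 weeks, edgeR adjusted p = 0.0713), and was called when TMM factors or the low-count filter were left out (edgeR adjusted p = 0.000455 and 0.000383). The others with an unadjusted p under 0.05 were Phgdh (-1.70 ± 0.53), which was called under the same 2 changes, Atf3 (1.45 ± 0.56) and Ddit3 (1.39 ± 0.56). Both tumours lay above 2 weeks for 6 and below for 5 of the 18 chaperone genes. They lay above for 7 and below for 4 of the 13 Atf4-type genes. Of all tested genes 33.8% lay above and 41.7% below. Of the other pathway genes Stc2 (-5.05 ± 0.67) and Pck2 (-3.21 ± 0.52) were lower.

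Against 5 months, which shares the tumour sums, 5 of the 32 genes had an unadjusted edgeR p under 0.05, against 8.85% of all tested genes, and DESeq2 called 0. They were Chac1 (-2.88 ± 0.74), called without TMM factors or the filter, Herpud1 (-1.77 ± 0.72), Atf3 (-1.38 ± 0.51), Ppp1r15a (-1.25 ± 0.49) and Dnajb9 (-1.22 ± 0.50). Both tumours lay below 5 months for 11 of 18 chaperone and 7 of 13 Atf4-type genes, and for 31.1% of all tested genes. Hspa5 was at 646 and 404 CPM in the tumours, between 249 CPM at 2 weeks and 997 CPM at 5 months. Of 84 other pathway genes 0 were called and 4 had an unadjusted p under 0.05.

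The tumours also differed from each other. By the 2-fold rule 11.8% of 5752 genes were higher and 7.82% lower in tumour 1 than in tumour 2 epithelial barcodes. Of 29 genes of the 32 (all but Hyou1, Chac1 and Slc7a11) 3 were higher, Sel1l (log2 difference 1.35), Dnajb11 (1.17) and Hsp90b1 (1.00), and 3 lower, Pdia4 (-2.50), Herpud1 (-1.63) and Trib3 (-1.60). Hsp90b1 fell under 2-fold without TMM factors (0.87). The 7 epithelial markers summed to 1714 CPM in tumour 1 and 4568 CPM in tumour 2, and median depth was 12875.5 and 8075.5 UMIs; their part was not tested. Of 58 other pathway genes 9 were higher, led by Eif2ak2 (1.31), Txndc11 (1.29) and Nupr1 (1.18), and 5 lower, led by the oxidase Ero1l (-2.59) and Cebpb (-2.12).

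In myeloid barcodes some of the 32 genes had lower values in both tumours than at 5 months, without a call by edgeR. Mthfd2 was at 201 CPM at 5 months and 25.6 and 34.3 CPM in tumours 1 and 2, Herpud1 at 201 CPM and 38.6 and 42.8 CPM, and Atf4 at 339 CPM and 139 and 153 CPM. For all 3 genes both tumours were far below the single 5 months library. All 13 Atf4-type log2 differences were below 0 (median -1.09, against 0.06 over all tested genes), and 11 of the 13 had both tumours below, where 32.7% of all tested genes did. Asns and Trib3 were the exceptions, with tumour 2 above 5 months (18.5 against 11.5 CPM and 15.4 against 14.8 CPM). The chaperone genes had a median of -0.01 and 4 of 18 with both tumours below. With 1 residual degree of freedom edgeR called 0 of 11502 genes, 0.00% in each direction, and 0 of the 32, of which 7 had an unadjusted p under 0.05 (9.15% of all genes): Mthfd2 (-2.81 ± 0.36), Herpud1 (-2.37 ± 0.32), Chac1 (-5.39 ± 0.97), Atf4 (-1.28 ± 0.32), Atf3 (-1.11 ± 0.33), Ppp1r15a (-1.09 ± 0.32) and Slc3a2 (-1.05 ± 0.31). DESeq2 called 3, Mthfd2, Chac1 and Herpud1 (DESeq2 adjusted p = 0.000286, 0.000616 and 0.00360). The share of all genes that DESeq2 called is not given here, so these calls have no background beside them. Of 82 other pathway genes edgeR called 0, and 12 had an unadjusted p under 0.05.

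The myeloid classes were not of one make-up. The 8 myeloid markers summed to 11325, 28918 and 13831 CPM, 5 neutrophil markers to 2112, 888 and 29561 CPM, 5 T cell markers to 354, 7.88 and 73.6 CPM and the immediate-early genes to 4723, 2552 and 4417 CPM, each in the order 5 months, tumour 1 and tumour 2. Barcodes in which S100a8 and S100a9 made at least 1% of UMIs were 1.12%, 0.761% and 26.0% of the class. Without them the differences were -2.74 for Mthfd2, -2.43 for Herpud1 and -1.30 for Atf4, and the part of other cell kinds was not tested. The 5 months leukocytes were sorted by CD45 and the tumour cells were not, which cannot be told apart from stage. A fit of the difference between classes, epithelial minus myeloid in tumours minus the same at 5 months, had 1 residual degree of freedom. It called 5 of 12707 genes and 0 of the 32. An unadjusted edgeR p under 0.05 was found for 1093 of the 12707 genes and for 4 of the 32. These were Mthfd2 (2.98 ± 0.55, edgeR adjusted p = 0.176), Chac1 (2.48 ± 0.95), Phgdh (1.95 ± 0.64) and Psat1 (1.58 ± 0.56). The share of myeloid barcodes with an Atf4 UMI after thinning was 46.6% at 5 months and 23.1% and 25.4% in tumours 1 and 2, and 65.7%, 54.4% and 51.0% without thinning.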

How the data were processed

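The data are 10x Chromium 3′ v2 single-cell libraries. The values the authors deposited are UMI counts, 1 for each gene in each barcode. The submitters' processing notes name Cell Ranger and the mouse build mm10 (GRCm38), with the Cell Ranger version not given in the sources used here. In all, 694 genes listed for 5 months alone (4.59% of its UMIs, most of them immunoglobulin) were left out, so CPM excludes them in every library. Barcodes that met more than 1 class rule (0, 9, 80 and 39) were left out, and no doublet caller was run. Counts were summed per library and class with at least 10 barcodes.

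Sums were tested with edgeR 4.0.16 (R 4.3.3, TMM, filterByExpr, quasi-likelihood F test, Benjamini-Hochberg adjusted p under 0.05 over all tested genes), and standard errors are the absolute log2 difference over the root of F. DESeq2 1.42.0 was an alternative, and the share of all genes it called is not given. The test was tried on simulated counts with 200 changed genes. Other alternatives left out TMM factors, the low-count filter, the library block or each library, used stricter class thresholds (6, 20 and 6 UMIs), a quality filter (500 genes, 10% mitochondrial UMIs) or kept barcodes of more than 1 class. Single-library comparisons used a 2-fold rule with no test. Shares were compared after thinning to 2000 UMIs (seed 1), and Poisson and exact binomial intervals (95%) cover counting error only. The labels do not say that the tumours came from separate animals, so p-values cannot be read as a spread between animals. In the class comparisons they measure how class differences vary between libraries. In the stage comparisons they measure the spread between the tumour libraries, and a lone library is assumed to vary like them.

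All 32 genes are accounted for. Those named are the called ones, the 5 highest and 5 lowest differences and those that failed the filter, and for other pathway genes up to 3 called ones per direction. Genes and lists were chosen with earlier results of these data known. Promoter sequences are from RefSeq (GRCm38.p6).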

Additional observations from a re-analysis of the deposited data

How the results depend on the processing

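Of 316 recomputed counts of called genes, 267 stayed within the limits set for them and 49 moved. A count that held no called gene both as reported and as recomputed is among those that stayed. Of 2718 recomputed log2 differences 199 had the opposite sign to the reported value, 15 of them in 5 months against 2 weeks. In 198 of these no call stood on either side, and the other was Phgdh in 5 months against 2 weeks, 0.64 in progenitor-type barcodes alone. Between plasma and epithelial barcodes the 5 higher Atf4-type genes became 2 without the library block, and the 2 lower became 1 with stricter thresholds and 1 to 2 with a library left out. Between plasma and myeloid barcodes the 4 higher Atf4-type genes became 7 with DESeq2, 2 without the block and 2 to 6 with a library left out, and the 2 lower became 1 without TMM factors, with DESeq2, with stricter thresholds, without the block, without Jchain, without S100a8- and S100a9-rich barcodes and with any library left out (1 to 1). Between epithelial and myeloid barcodes the 5 higher Atf4-type genes became 3 without the block and 3 to 7 with a library left out, the 4 lower chaperone genes 2 without the block, and the 1 lower Atf4-type gene 3 without the low-count filter, 2 with stricter thresholds and 1 to 2 with a library left out.

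Between progenitor and hormone types the 0 higher chaperone genes became 1 without the filter, 4 with stricter thresholds and 0 to 2 with a library left out; the 0 higher Atf4-type genes became 1 with stricter thresholds, and the 0 lower 1 without the filter, 1 with stricter thresholds and 0 to 1 with a library left out. Against 2 weeks, tumours gave 1 higher chaperone gene without TMM factors, without the filter or with DESeq2, and 2 lower Atf4-type genes without TMM factors or the filter. Against 5 months they gave 1 lower Atf4-type gene under the same 2 changes. In myeloid tumours 1 lower chaperone and 2 lower Atf4-type genes appeared without the filter or with DESeq2. For 5 months against 2 weeks, progenitor-type barcodes alone gave 4 higher and 0 lower chaperone genes and 3 higher and 1 lower Atf4-type genes. Hormone-type barcodes alone gave 3 higher and 5 lower Atf4-type genes. Of these 5, Trib3, Chac1, Psat1 and Mthfd2 had 3 UMIs each in the 5 months hormone-type barcodes, which is the floor used here. For tumour 1 against tumour 2, 2 lower Atf4-type genes were counted without TMM factors, with stricter thresholds and in progenitor-type barcodes. The cause of these changes was not tested.

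Of the called genes 16 of 21, 15 of 20 and 6 of 10 kept their call under all 12 alternatives in the plasma against epithelial, plasma against myeloid and epithelial against myeloid comparisons. No paired analysis was possible because the stage groups share only the number 1, which names a lone library and pairs nothing; the class comparisons have the library as a block. Leaving out 1 tumour leaves no residual degrees of freedom, so those settings gave values and no counts. Hormone-type barcodes of tumour 1 (3) were too few for the tumour comparisons. The immunoglobulin alternative removed Jchain only. Leaving out S100a8- and S100a9-rich barcodes, leaving Cd14 out of the progenitor markers and the fit of the difference between classes were chosen after the data were seen. Depth limits the plasma sums of the tumours (27 and 13 barcodes), where 3 UMIs are 22.2 and 30.0 CPM.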

Other observations

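Barcodes in none of the 3 classes were used in no comparison. Their summed chaperone level was 2329 CPM at 2 weeks, 2366 CPM at 5 months, 4631 CPM in tumour 1 and 1912 CPM in tumour 2, and the Atf4-type sum was 1015, 1244, 1018 and 1017 CPM. The tumour 1 barcodes stood above the other 3 libraries in the chaperone sum. The 6 fibroblast markers summed to 13426 CPM there, against 266 to 673 CPM in the other libraries, and their part in the chaperone level was not tested.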
